A study of Mus musculus with 8 samples.

Results

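The transcripts of 10 enzymes of serine synthesis, folate one-carbon metabolism and asparagine synthesis were examined in sorted mouse beta cells in which 2 (KO) or 1 (Het) alleles of Adar were floxed. Adar encodes the main enzyme that converts adenosine to inosine in double-stranded RNA. The members were taken by symbol from a table of 44343 genes and are Phgdh, Psat1, Psph, Shmt1, Shmt2, Mthfd1, Mthfd1l, Mthfd2, Aldh1l2 and Asns. All 10 were found and all 10 had a mean above the filter of 10 normalized counts. RNA was sequenced from 8 libraries. The 4 KO libraries came from MipCreER; Adar floxed/floxed; R26R-EYFP mice and the 4 Het libraries from MipCreER; Adar floxed/+; R26R-EYFP mice, so that the controls carry 1 floxed allele and Cre as well. MipCreER is a tamoxifen-inducible Cre under a mouse insulin promoter, and the EYFP reporter marks cells in which Cre acted. All mice were 1 month old, received 2 doses of 8 mg tamoxifen and gave YFP-positive islet cells for sorting 7 days later. The design text names insulitis and diabetes after the loss of Adar and asks what underlies the inflammation. The labels do not give the number of mice behind a library, and the p-values rest on library-to-library spread, which may be technical.

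Serine is made from the glycolytic intermediate 3-phosphoglycerate by PHGDH, PSAT1 and PSPH in that order. SHMT1 in the cytosol and SHMT2 in mitochondria then move a carbon of serine onto folate, and the MTHFD and ALDH1L enzymes oxidize or release it for the synthesis of purines, thymidine and methionine and for NADPH. Most of these genes, and ASNS, which makes asparagine, are textbook targets of ATF4, the transcription factor of the integrated stress response that phosphorylated eIF2alpha lets cells translate. Beta cells secrete large amounts of protein and use this response under amino acid shortage and endoplasmic reticulum stress.

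The libraries differed in depth and level before genotype was considered. They held 5.37 to 15.9 M reads in KO and 5.93 to 12.8 M in Het. Under the deposited scaling, genes with a mean of at least 200 normalized counts lay a median of 0.88 and 0.96 log2 units above each gene's mean over the libraries in KO 1 and KO 2, 0.77 and 0.56 below it in KO 3 and KO 4, and between −0.46 and 0.22 in Het. KO 3 and KO 4 had at most 1.10 normalized counts of the Y-linked gene Ddx3y and Het 1 had 19.2 of Xist, while the other 5 libraries had at least 100 of both and are called libraries of both sexes. Mitochondrial transcripts took 17.4% of the reads of KO 3, against 7.23% to 10.4% in the other KO libraries and 6.90% to 8.35% in Het. The 10 beta cell markers took 3.68%, 8.17%, 10.7% and 4.21% of reads in KO 1 to KO 4 and 9.33% to 11.8% in Het. Adar ran from 615 to 4030 normalized counts in KO and from 744 to 1187 in Het. The gene total takes reads from all exons and does not check the deletion. Values are given on the deposited scale and as rescaled counts, in which the same reads are scaled by TMM factors computed from genes with a mean of at least 200. This second scale, and the split of the KO libraries into KO 1 and KO 2 and KO 3 and KO 4 by that level, were chosen after the data had been seen. The median log2 fold change of all 21498 tested genes was 0.05 on the deposited scale and −0.18 on the rescaled one, and that of the 10 members was 0.46 and 0.22.

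The clearest difference was in the last step of serine synthesis. Psph, the phosphatase that releases serine (ENSMUSG00000029446, protein-coding, chromosome 5, 129765558 to 129787449, minus strand, mm10), had 574, 277, 178 and 159 normalized counts in KO 1 to KO 4, against 76.9, 103, 123 and 66.4 in Het 1 to Het 4. All 4 KO values lay above all 4 Het values, with KO 1 highest. They rest on 161 to 640 reads in KO and 60 to 143 in Het. Its log2 fold change was 1.52 ± 0.45 (SE, n = 4 each), which did not pass the test on the deposited scale (limma adjusted p = 0.064). As rescaled counts Psph averaged 254 ± 80.6 in KO and 99.6 ± 7.26 in Het (SD, n = 4 each), which gave a log2 difference of 1.281 ± 0.231 that passed (limma adjusted p = 0.021). It also passed with TMM factors from all tested genes (log2 fold change 1.30, limma adjusted p = 0.014), with edgeR's quasi-likelihood test on whole reads (1.34, adjusted p = 0.016) and with DESeq2 (1.69, adjusted p = 0.019). It did not pass in limma on the deposited scale with no filter (adjusted p = 0.154), a minimum mean of 50 (0.069) or no trend and robust settings (0.225). With 0.5 or 8 added to the values, or replicate number as a block, the limma adjusted p was 0.064, 0.066 and 0.089.

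Psph was higher than Het in both pairs of KO libraries. This was fixed in advance, since all 4 KO values lay above all Het values on both scales. Both pairs were set against the same Het libraries and are not separate replications. On the rescaled scale the log2 fold change was 1.10 ± 0.24 for KO 1 and KO 2 against Het (limma adjusted p = 0.0030). There 3.92% of all genes were called higher and 36.2% lower. For KO 3 and KO 4 against Het it was 1.45 ± 0.21 (adjusted p = 0.0011, beside 2.38% and 1.69% of genes). On the deposited scale the pairs gave 2.14 ± 0.28 and 0.90 ± 0.29 (limma adjusted p = 4.49e-12 and 0.032). There limma called 9780 of all 21498 genes higher with the first pair and 273 with the second. Leaving out single libraries on the rescaled scale gave 1.15 to 1.53. The adjusted p was 0.094 without KO 1, 0.073 without Het 1, 0.069 without Het 2 and 0.051 without Het 3, and under 0.05 without each of the other 4. On the deposited scale the fold change without KO 1 was 1.14 (limma adjusted p = 0.689). The test was passed there only without KO 3 (1.70, adjusted p = 0.0079) and without KO 4 (1.76, adjusted p = 0.010). The limma adjusted p was 0.089 without KO 2, and 0.561, 0.278, 0.116 and 0.558 without Het 1 to Het 4. An exon stretch of 452 bases of Psph overlaps Cct6a, a chaperonin subunit gene on the opposite strand, and the strand setting of the counting is not stated. Cct6a itself had a log2 fold change of 0.30 ± 0.13 on the rescaled scale (limma adjusted p = 0.333).

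The earlier steps had smaller fold changes, which did not pass the test with all 8 libraries and genotype as the only term. Psat1, the aminotransferase of the second step (ENSMUSG00000024640, chromosome 19, 15904678 to 15947337, minus strand), had 470, 283, 124 and 130 normalized counts in KO 1 to KO 4 and 99.9, 100.01, 157 and 88.3 in Het 1 to Het 4. KO 1 and KO 2 were high, and KO 3 and KO 4 lay inside the Het range. The log2 fold change was 0.98 ± 0.45 (limma adjusted p = 0.617), and 0.74 ± 0.19 on the rescaled scale (adjusted p = 0.078). There the KO values of 149 to 262 all lay above the Het values of 102.05 to 137. Psat1 passed on that scale without KO 2 (0.89, limma adjusted p = 0.018), and the deposited value was 0.61 without KO 1. Phgdh, the first enzyme of the branch (ENSMUSG00000053398, chromosome 3, 98313170 to 98339990, minus strand), had 491, 329, 120 and 170 normalized counts in KO 1 to KO 4 and 141, 141, 195 and 117 in Het 1 to Het 4. Again KO 1 and KO 2 were high and the other KO libraries lay inside the Het range. Its log2 fold change was 0.71 ± 0.46 (limma adjusted p = 0.867) and 0.47 ± 0.17 rescaled (adjusted p = 0.200). The rescaled KO values of 173 to 274 were just clear of the Het values of 144 to 171. Without KO 1 the deposited value was 0.37. Without KO 2 the rescaled one was 0.60 (limma adjusted p = 0.057, and 0.023 when testing was limited to a minimum mean of 200). Phgdh has 20 processed pseudogenes in the mm10 annotation that match at least 200 bases of it at 90% identity or more. The 18 of them in the table averaged at most 13.6 normalized counts each. How shared reads were counted is not stated.

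With all 8 libraries, the 3 serine enzymes were the members with the largest log2 fold changes on both scales, in the order Psph, Psat1, Phgdh. With KO 1 and KO 2 alone Aldh1l2 lay above Phgdh, at 1.52 against 1.46 (rescaled 0.48 against 0.41). With KO 3 and KO 4 alone Shmt1 did, at 0.037 against −0.027 (rescaled 0.58 against 0.52). On the rescaled scale all 3 serine enzymes had groups that did not overlap, as did 5.47% of all tested genes in this direction. On the deposited scale Psph alone did, against 2.19% of genes. No member had all KO values below all Het values on either scale, as 4.27% of genes did rescaled and 0.893% on the deposited scale. Their counts per library and those of the other members are plotted on the deposited scale.

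**Figure D1:**
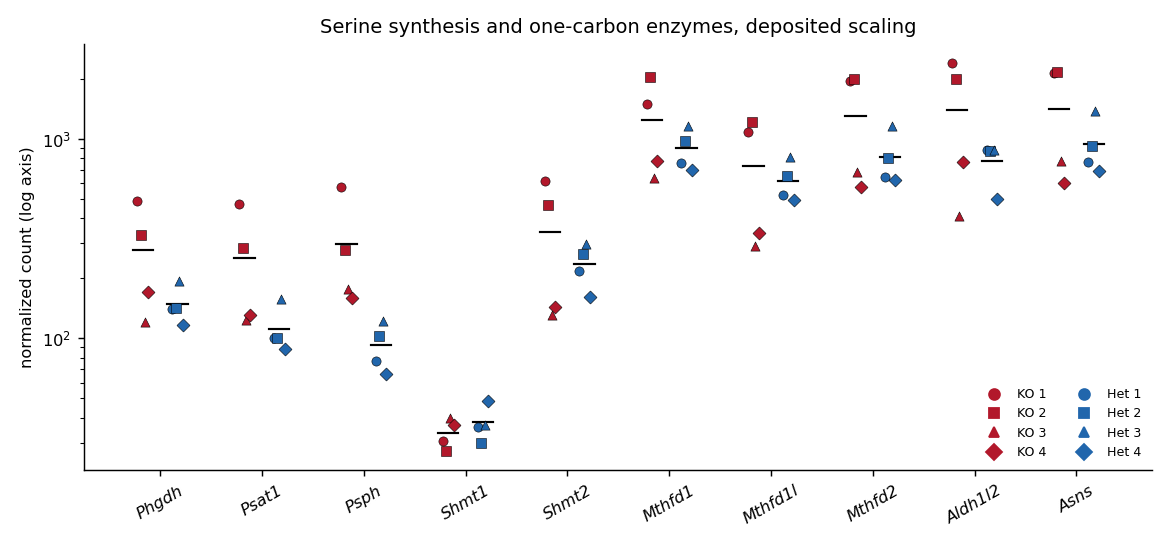
Normalized counts of the 10 enzymes in each library on a log axis, KO in red to the left of Het in blue; each symbol is 1 library and the black bars are group means. KO 1 and KO 2 were highest for 9 of the 10 genes, while for Psph also KO 3 (178) and KO 4 (159) lay above all Het libraries (66.4 to 123).

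Across the 10 members, limma called 0 higher and 0 lower on the deposited scale, where 0.921% of all genes were called higher and 0.0233% lower. Before adjustment, 2 members (Psat1 and Psph) were higher at p under 0.05 and 0 lower, beside 4.05% and 2.7% of all genes. On the rescaled scale 1 member, Psph, was called higher and 0 lower (1.14% and 0.395% of all genes), and before adjustment 3 were higher and 0 lower (7.29% and 6.07%). edgeR called 1 higher and 0 lower (0.673% and 0.0343% of genes). DESeq2 called 1 higher and 0 lower (1.25% and 0.0178%). Limma with TMM factors from all tested genes called 1 higher and 0 lower (0.637% and 0.0372%). The member was Psph each time. With KO 1 and KO 2 alone on the rescaled scale, 3 members (Psat1, Psph and Aldh1l2) were called higher and 1 (Shmt1) lower, beside 3.92% and 36.2% of all genes. With KO 3 and KO 4 alone 1 (Psph) was called higher and 0 lower, beside 2.38% and 1.69%.

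**Figure D2:**
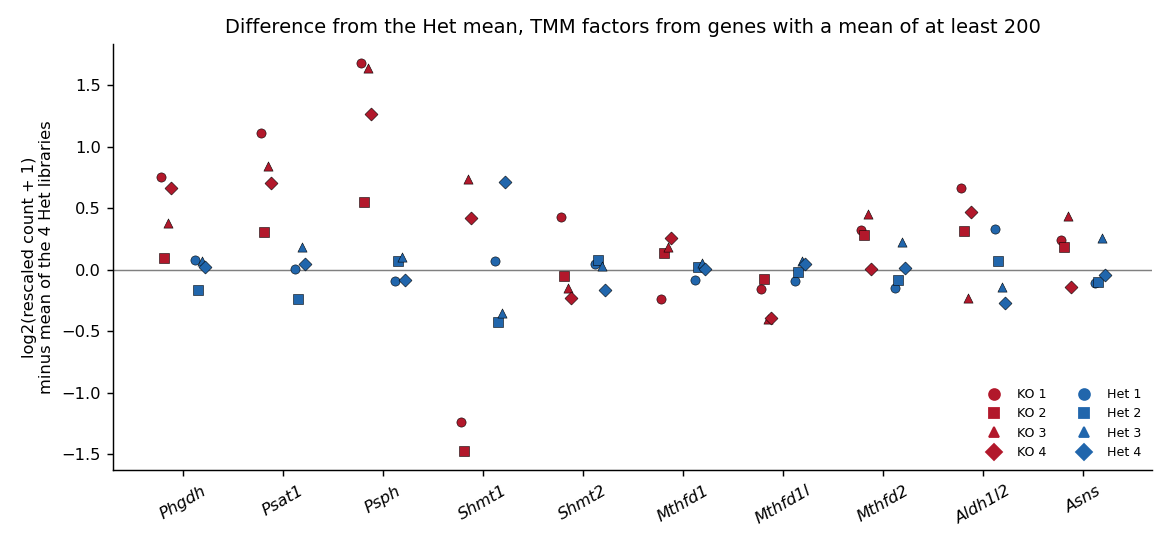
Difference of each library from the mean of the 4 Het libraries in log2(rescaled count + 1), KO in red to the left of Het in blue. Psph lay 0.55 to 1.68 above the Het mean in KO libraries and Psat1 0.30 to 1.11, while for Shmt1 the KO libraries ran from −1.47 to 0.73.

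None of the mitochondrial folate enzymes passed the test with all 8 libraries on either scale. Mthfd2 (ENSMUSG00000005667, chromosome 6, 83305691 to 83325908, minus strand), the dehydrogenase and cyclohydrolase of mitochondria that is low in many resting adult tissues, had 1950, 2004, 681 and 576 normalized counts in KO 1 to KO 4 and 644, 801, 1166 and 621 in Het 1 to Het 4, with overlapping groups. Its log2 fold change was 0.51 ± 0.56 (limma adjusted p = 0.948), and 0.27 ± 0.14 on the rescaled scale (adjusted p = 0.457). Shmt2 (ENSMUSG00000025403, chromosome 10, 127517123 to 127522444, minus strand), which feeds serine carbon into this branch, had 617, 469, 131 and 144 normalized counts in KO 1 to KO 4 and 218, 265, 299 and 162 in Het 1 to Het 4. KO 1 and KO 2 lay above all Het libraries, and KO 3 and KO 4 below them. Rescaled, it averaged 259 ± 57.3 in KO and 256 ± 19.0 in Het (SD, n = 4 each), with a log2 fold change of −0.00 ± 0.16 (limma adjusted p = 0.998).

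Mthfd1l (ENSMUSG00000040675, chromosome 10, 3973118 to 4167081, plus strand), the mitochondrial ligase that releases formate, had the lowest rescaled log2 fold change among the members with a mean of at least 200 normalized counts. It had 1085, 1215, 291 and 339 normalized counts in KO 1 to KO 4 and 521, 651, 810 and 495 in Het 1 to Het 4, with KO 1 and KO 2 above and KO 3 and KO 4 below all Het libraries. The rescaled values were 510 to 639 in KO and 632 to 707 in Het and overlapped in KO 2 alone, with a log2 fold change of −0.26 ± 0.12 that did not pass (limma adjusted p = 0.377). On the deposited scale it was −0.02 ± 0.54 (adjusted p = 0.998). There KO 1 and KO 2 alone gave 0.92 and KO 3 and KO 4 alone −0.95. The pairs were split by the level of expressed genes on this same scale, which sets such a sign, and 9780 of all genes were called higher with the first pair and 1602 lower with the second. Rescaled, the pairs gave −0.13 and −0.40, beside medians of all genes of −0.47 and 0.37. Aldh1l2 (ENSMUSG00000020256, chromosome 10, 83487450 to 83534140, minus strand), the mitochondrial dehydrogenase that oxidizes formyl-folate and yields NADPH, had 2398, 1991, 411 and 769 normalized counts in KO 1 to KO 4 and 876, 869, 878 and 497 in Het 1 to Het 4. KO 3 lay below all Het libraries and KO 4 among them. Its log2 fold change was 0.55 ± 0.56 (limma adjusted p = 0.938) and 0.30 ± 0.19 rescaled (adjusted p = 0.616). Rescaled it was 0.48 ± 0.15 with KO 1 and KO 2 alone (adjusted p = 0.021) and 0.12 ± 0.21 with KO 3 and KO 4 alone (adjusted p = 0.711). Leaving out 1 library gave 0.18 (without KO 1) to 0.47 (without KO 3) rescaled, and 0.18 to 1.02 with the same libraries left out on the deposited scale. The exons of Aldh1l2 share 1056 of 7503 bases with D10Wsu102e on the opposite strand, which had 500 to 598 normalized counts in KO and 485 to 552 in Het.

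Of the cytosolic enzymes, Mthfd1 (ENSMUSG00000021048, chromosome 12, 76255298 to 76319803, plus strand), which carries out the matching reactions in a single protein, had 1495, 2054, 638 and 775 normalized counts in KO 1 to KO 4 and 762, 980, 1169 and 701 in Het 1 to Het 4, with overlapping groups. Rescaled it was nearly level, at 1050 ± 150 in KO and 983 ± 41.5 in Het (SD, n = 4 each; log2 fold change 0.08 ± 0.13, limma adjusted p = 0.837). Shmt1 (ENSMUSG00000020534, chromosome 11, 60788104 to 60811718, minus strand) was the weakest member, with 30.5, 27.2, 39.7 and 36.9 normalized counts in KO 1 to KO 4 and 35.9, 30.004, 36.9 and 48.6 in Het 1 to Het 4, with overlapping groups. Its log2 fold change was −0.16 ± 0.40 (limma adjusted p = 0.976) and −0.39 ± 0.56 rescaled (adjusted p = 0.827). Rescaled, the sign differed between the pairs, −1.37 ± 0.41 with KO 1 and KO 2 (adjusted p = 0.012, where 36.2% of all genes were called lower) and 0.58 ± 0.39 with KO 3 and KO 4 (adjusted p = 0.337). So did the sign of the median of all genes, which was −0.47 with the first pair and 0.37 with the second. Per length, Shmt1 ran from 0.417 to 1.76 reads per kilobase of exon scaled to library size (RPKM) in KO and from 0.864 to 1.91 in Het. These values rest on 21 to 62 reads in KO and 24 to 60 in Het. The 1432 chemosensory receptor genes, not expected in beta cells, were also low in KO 1 and KO 2 and high in KO 3 and KO 4, with medians of 0.0745, 0.0504, 0.517 and 0.482 RPKM in KO 1 to KO 4 and of 0.131 to 0.385 in Het. Shmt1 lay above their 95th percentile in each library, which was 0.186 to 1.38 RPKM in KO and 0.397 to 1.10 in Het. The part of this background in the Shmt1 values was not tested.

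**Figure D3:**
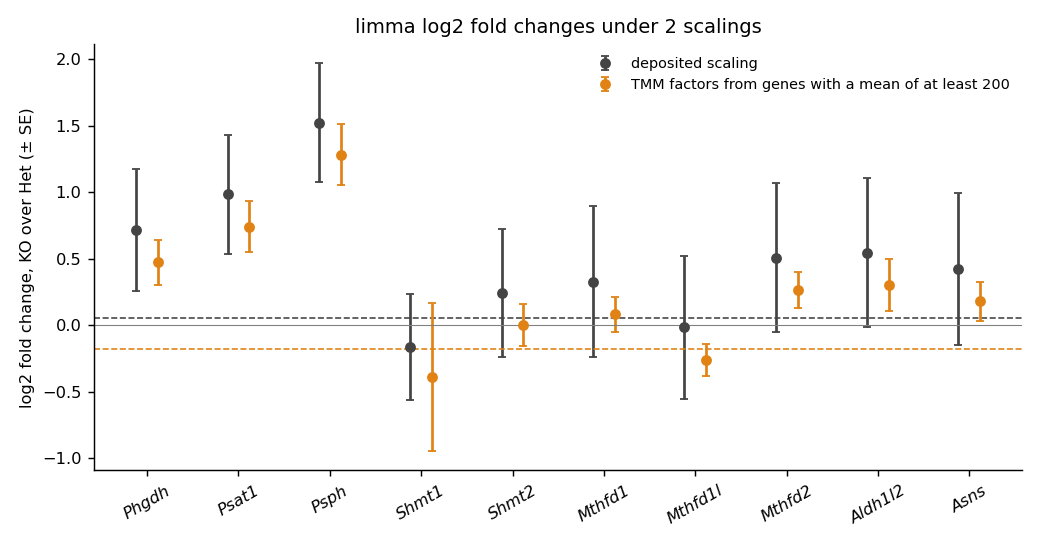
Log2 fold change of each enzyme, KO over Het, with its standard error on the deposited scale (dark) and with TMM factors from genes with a mean of at least 200 (orange); dashed lines are the medians of all 21498 tested genes, 0.05 and −0.18. The 3 serine synthesis enzymes stand highest on both scales, and the other 7 lie between −0.16 and 0.55 on the deposited scale and between −0.39 and 0.30 on the other.

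Asns (ENSMUSG00000029752, chromosome 6, 7675169 to 7693254, minus strand), which amidates aspartate with glutamine nitrogen, was the most abundant member per length, at 47.8 ± 5.73 RPKM in KO and 40.0 ± 4.06 in Het (SD, n = 4 each). It had 2134, 2177, 780 and 603 normalized counts in KO 1 to KO 4 and 769, 919, 1382 and 694 in Het 1 to Het 4, so that the groups overlapped. The log2 fold change was 0.42 ± 0.57 (limma adjusted p = 0.958) and 0.18 ± 0.15 rescaled (adjusted p = 0.739). Leaving out 1 library gave 0.14 (without KO 2) to 0.76 (without KO 4) on the deposited scale and 0.087 (without KO 3) to 0.29 (without KO 4) rescaled. Asns is a standard reporter of ATF4, which binds with a C/EBP partner at a composite element of the form TGATGNAA. RefSeq promoters of 300 bases (250 before and 50 after the start site, GRCm38.p6) were available for 9 of the members, Psat1 with 2 start sites, and were searched on both strands for TGATGNAA (reverse TTNCATCA). The element occurred in 1 of these members, Asns, and in 4.51% of all 27025 genes (3.97% of 32851 promoters). The interferon-stimulated response element, searched in the same way, occurred in 0 of them and in 3.99% of all genes (3.44% of promoters). The Asns promoter, chr6:7693160-7693459 on the minus strand, is shown with the element in capitals, its first base at position −23 from the start, beside that of Psph, chr5:129787204-129787503 on the minus strand, which holds no match in this window.
Asns: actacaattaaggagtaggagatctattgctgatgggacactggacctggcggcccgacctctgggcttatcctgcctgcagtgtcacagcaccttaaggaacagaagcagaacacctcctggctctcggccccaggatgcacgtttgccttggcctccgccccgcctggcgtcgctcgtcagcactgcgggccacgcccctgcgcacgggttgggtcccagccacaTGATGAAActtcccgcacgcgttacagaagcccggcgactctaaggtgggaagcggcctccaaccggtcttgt
Psph: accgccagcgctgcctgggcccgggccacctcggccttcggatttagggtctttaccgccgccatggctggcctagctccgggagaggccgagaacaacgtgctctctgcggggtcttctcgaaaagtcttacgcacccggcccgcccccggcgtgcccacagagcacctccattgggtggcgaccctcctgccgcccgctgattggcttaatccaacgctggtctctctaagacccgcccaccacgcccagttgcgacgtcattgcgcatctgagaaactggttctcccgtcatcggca

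Per length, Shmt2, Mthfd2 and Aldh1l2 stood well above the near relative of each in both genotypes, while mitochondrial Mthfd1l stood below cytosolic Mthfd1. Shmt2 stood at 9.66 ± 2.96 RPKM in KO and 8.91 ± 0.75 in Het, against 1.11 ± 0.73 and 1.22 ± 0.49 for Shmt1 (SD, n = 4 each). Mthfd2 stood at 34.3 ± 3.68 RPKM in KO and 27.0 ± 2.55 in Het, and its near relative Mthfd2l, a second mitochondrial dehydrogenase, at 0.84 ± 0.37 and 0.80 ± 0.23. Aldh1l2 stood at 16.6 ± 5.61 RPKM in KO and 12.3 ± 2.44 in Het, and its cytosolic relative Aldh1l1 at 0.76 ± 0.50 and 1.40 ± 0.58. In Het the order of the members was Asns, Mthfd2, Mthfd1 (23.9 ± 1.02 RPKM), Mthfd1l (16.5 ± 0.67), Aldh1l2, Shmt2, Phgdh (7.05 ± 0.42), Psat1 (3.07 ± 0.29), Psph (2.49 ± 0.18) and Shmt1 (SD, n = 4 each). The ranges of Mthfd2 and Mthfd1 in Het overlapped, as did the ranges of Psat1 and Psph. In KO, Psph reached 6.71 ± 2.25 RPKM and Psat1 5.58 ± 1.61, with Phgdh at 10.7 ± 3.08.

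Ratios of members within a library do not depend on the scaling. Those to Phgdh still rest on reads that its pseudogenes may share. The Psph to Phgdh ratio of normalized counts was 1.17, 0.843, 1.48 and 0.934 in KO 1 to KO 4 and 0.546, 0.726, 0.630 and 0.569 in Het 1 to Het 4. All KO ratios were above all Het ratios, with a 1.75-fold higher geometric mean in KO (two-sided exact permutation test, p = 0.029, the smallest that 70 arrangements allow; adjusted p = 0.143 over 5 ratios, which does not pass). A ratio that alone reaches this smallest p cannot pass after adjustment over 5 ratios, so the adjusted test cannot decide here. The Psat1 to Phgdh ratio was 1.204-fold higher in KO (exact p = 0.057, adjusted p = 0.143), with 0.766 to 1.03 in KO and 0.708 to 0.806 in Het. The Mthfd1l to Mthfd1 ratio was 0.788 times that of Het (exact p = 0.143, adjusted p = 0.238). It ran from 0.664 to 0.706 in Het. KO 2, KO 3 and KO 4 lay lower, at 0.592, 0.457 and 0.437, while KO 1 at 0.725 lay above all Het libraries.

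The other ratios of mitochondrial to cytosolic enzymes overlapped between genotypes. Mthfd2 to Mthfd1 was 0.743 to 1.31 in KO and 0.818 to 0.997 in Het (exact permutation p = 0.371, adjusted p = 0.464). Shmt2 to Shmt1 was 20.2 and 17.2 in KO 1 and KO 2, 3.31 and 3.90 in KO 3 and KO 4, and 3.33 to 8.83 in Het (exact permutation p = 0.571, adjusted p = 0.571). It was high and low in the same KO libraries as the general level of expressed genes, while chemosensory receptor genes ran the other way. The part of either was not tested.

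**Figure D4:**
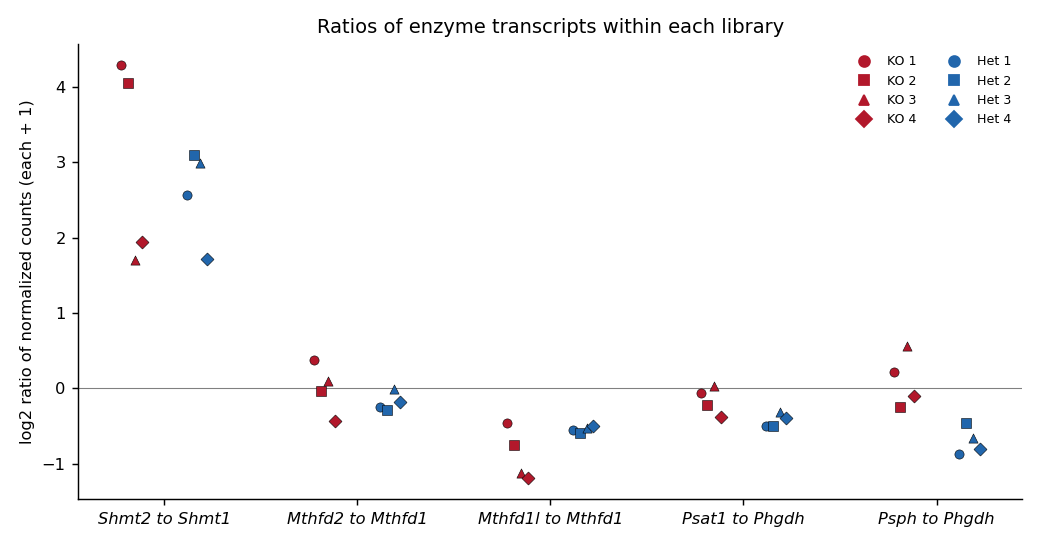
Log2 ratio of normalized counts of 2 enzymes within each library, KO in red to the left of Het in blue. For Psph to Phgdh all 4 KO libraries (ratios of 0.843 to 1.48) lay above all 4 Het libraries (0.546 to 0.726), while the other 4 ratios overlapped.

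The rest of one-carbon metabolism gave few calls. Among 18 other enzymes of the folate cycle limma called 0 higher and 0 lower on the deposited scale (0 and 1 before adjustment; edgeR and DESeq2 0 each), with a median log2 fold change of 0.28, against 0.05 for all genes. On the rescaled scale 1 rose, Atic, which closes the purine ring with formyl-folate. Atic had 809, 672, 232 and 297 normalized counts in KO 1 to KO 4 and 200, 258, 301 and 192 in Het 1 to Het 4. Its rescaled log2 fold change was 0.67 ± 0.12 (limma adjusted p = 0.024; 0.91 ± 0.50 and adjusted p = 0.797 on the deposited scale). Aldh1l1 had 26.7 ± 8.71 normalized counts in KO and 50.3 ± 15.0 in Het (SD, n = 4 each; log2 fold change −0.91 ± 0.40, limma adjusted p = 0.564).

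Of 13 genes of the methionine cycle and transsulfuration, 0 were called on either scale by limma, and 0 by edgeR or DESeq2. Before adjustment there were 0 on the deposited scale, and 1 higher and 2 lower rescaled. The median log2 fold change was 0.12, and −0.12 rescaled. Mtrr, which reactivates methionine synthase, had 166 ± 95.5 normalized counts in KO and 90.2 ± 12.8 in Het (log2 fold change 0.69 ± 0.43, limma adjusted p = 0.852; SD, n = 4 each). Bhmt, of the betaine route to methionine, had 13.1 ± 5.88 in KO and 18.7 ± 5.90 in Het (log2 fold change −0.54 ± 0.46, adjusted p = 0.917). Of 15 tested genes of serine, folate and asparagine transport and use, again 0 were called by limma on either scale, edgeR or DESeq2. Before adjustment 0 differed on the deposited scale, and 0 were higher and 1 lower rescaled. Their median was 0.24, and 0.00 rescaled. Asrgl1, which cleaves asparagine, had a log2 fold change of 0.62 ± 0.43 (limma adjusted p = 0.893) and Aspg, another asparaginase, −0.88 ± 0.50 (adjusted p = 0.821). Among 10 genes of glutamate and aspartate supply, 0 were called on the deposited scale, by edgeR or by DESeq2 (0 before adjustment on the deposited scale), and 1 on the rescaled scale, Got1, the cytosolic aspartate aminotransferase. It had 387 ± 247 normalized counts in KO and 179 ± 36.4 in Het (SD, n = 4 each; rescaled log2 fold change 0.64 ± 0.14, limma adjusted p = 0.048). Gpt2, an alanine aminotransferase, had 0.23 ± 0.16 rescaled (adjusted p = 0.656).

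ATF4 and its other targets of the amino acid response had the highest median of the 5 lists on both scales, 0.81 on the deposited one. Of 17 tested, 2 were called higher and 0 lower on the deposited scale, Trib3 and Gdf15. On the rescaled scale 6 were called higher and 0 lower, and 16 of 17 log2 fold changes were positive with a median of 0.57, against −0.18 for all genes. edgeR called 2 higher and DESeq2 called 3. Trib3, a pseudokinase that feeds back on the response, had 3613, 1948, 777 and 940 normalized counts in KO 1 to KO 4 and 377, 316, 554 and 280 in Het 1 to Het 4. Its log2 fold change was 2.03 ± 0.55 (limma adjusted p = 0.026), and 1.78 ± 0.20 rescaled (adjusted p = 0.0014). Gdf15, a stress-induced cytokine, had 67.2, 38.8, 32.0 and 53.0 normalized counts in KO 1 to KO 4 and 5.12, 15.0, 18.0 and 12.2 in Het 1 to Het 4 (log2 fold change 1.91 ± 0.42, limma adjusted p = 0.0011 on the deposited scale and 0.178 rescaled). Besides Trib3, the rescaled scale gave calls for Slc7a11, the cystine transporter (1.16 ± 0.26), Chac1, which degrades glutathione (1.02 ± 0.21), and the transcription factors Cebpb (0.91 ± 0.15), Cebpg (0.87 ± 0.15) and Atf5 (0.56 ± 0.11), with limma adjusted p from 0.012 to 0.047. Atf4 itself had a rescaled log2 fold change of 0.52 ± 0.15 (adjusted p = 0.123). This list was compiled when results on stress genes in these libraries were known, and is not independent evidence of its direction.

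**Figure D5:**
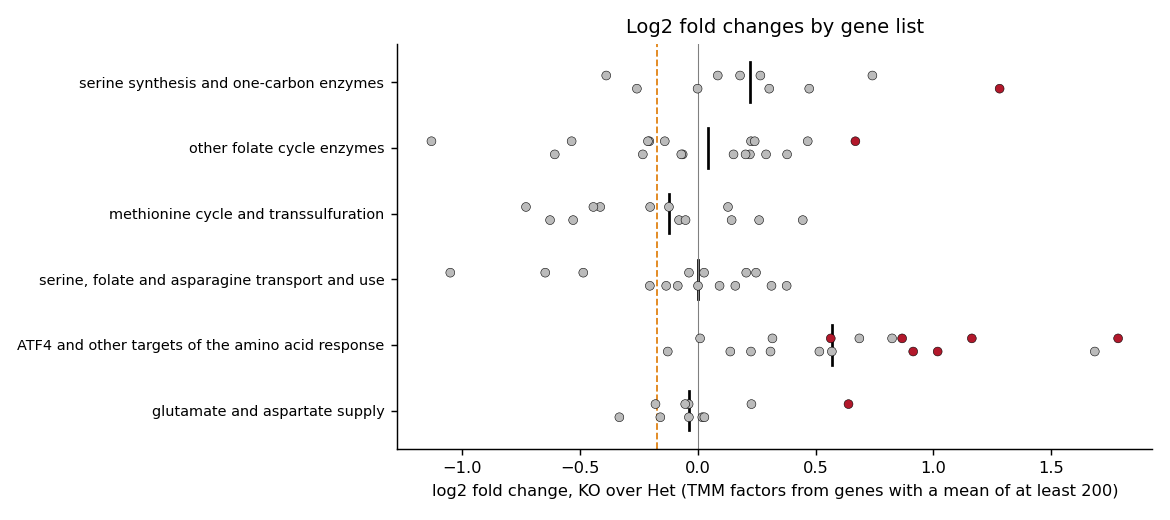
Log2 fold changes on the rescaled scale for the 10 enzymes and 5 lists of related genes; each dot is a gene, red where the limma adjusted p was under 0.05, black bars are list medians and the dashed orange line is the median of all tested genes (−0.18). Psph is the red dot of the top row, and the list of ATF4 and its other targets has the highest median, 0.57.

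Markers of other cells were low beside Ins2, but not beside every beta cell marker. Ins2 ran from 125891 to 835219 normalized counts in KO and from 389199 to 799944 in Het. The 13 acinar markers summed to 81.6 to 254 normalized counts in KO and 130 to 205 in Het, and Rbpjl, the highest, had 2.59 to 32.0 in KO and 21.4 to 37.2 in Het. The 13 immune markers summed to 212 to 371 in KO and 321 to 409 in Het, and 0 of the 11 tested had a positive log2 fold change (median −0.45, rescaled −0.68). The 10 endothelial and stromal markers summed to 123 to 439 in KO and 245 to 387 in Het, with 0 of 8 tested positive (median −0.26, rescaled −0.48). The 7 duct markers, led by Krt7, summed to 1454 to 4870 in KO and 1646 to 3056 in Het. Krt7 had 1112 to 3662 in KO and 1013 to 2075 in Het. The beta cell marker Pdx1 had 654 to 2916 in KO and 955 to 1849 in Het. The 6 alpha cell markers summed to 1340 to 2661 in KO and 1222 to 2812 in Het, and the 5 of delta and PP cells to 662 to 1057 in KO and 524 to 777 in Het. None of these markers was at 0 in a whole genotype; Ptf1a, the acinar transcription factor, was at 0 in KO 2 and KO 3, and Cela2a and Amy2a5, acinar enzymes, in KO 2. The 15 proliferation genes summed to 950 to 1941 in KO and 1116 to 1597 in Het, and limma called 0 of them on either scale, as did edgeR and DESeq2 (before adjustment 1 higher and 1 lower on the deposited scale). Limma called 1 duct marker, Krt19, lower on the deposited scale. It called 0 of the other cell type markers, of which 1 was higher (alpha cell) and 2 lower (acinar and immune) before adjustment. Acinar and immune sums were lowest in KO 1 and KO 2. Chemosensory receptor genes were lowest there too, at 0.0484% and 0.0342% of reads, against 0.315% and 0.285% in KO 3 and KO 4 and 0.0838% to 0.236% in Het. The part of this background in the marker values was not tested. Psph on the rescaled scale was highest in KO 1 and KO 3. The part of these cells, of this background and of the mitochondrial share of KO 3 in the Psph result was not tested. In bulk samples, more RNA of a gene per cell and more cells that express it cannot be told apart.

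The members did not share 1 profile. The root mean squared difference between a gene's centred rescaled log2 profile over the 8 libraries and the mean profile of the members was 0.16 for Mthfd2, 0.17 for Phgdh and 0.19 for Asns. It was 0.21 for Mthfd1, 0.25 for Shmt2, 0.28 for Psat1, 0.32 for Aldh1l2 and 0.33 for Mthfd1l, and 0.56 for Psph and 0.78 for Shmt1. The median over 11055 other genes was 0.30. The mean profile contains each member itself and none of the other genes, so the members' values are not on equal terms with that median. Among the genes nearest to the mean profile were Rbm18 (0.044), Isg20l2 (0.048), Ccdc59 (0.050) and Nop53 (0.060), which had rescaled log2 fold changes of 0.21 to 0.30.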

How the data were processed

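Per the labels' protocols, sorted YFP-positive cells went into a stranded, low-input total RNA kit from Takara (SMARTer, Pico Input). Per the submitters' processing notes the build was mm10 and the tools, with no roles stated, were STAR 2.7.3a, HTSeq, DESeq2 1.28.1, UMI-tools and FastQC 0.11.8. Annotation, strand setting and duplicate removal are not given in the sources used here. The deposited signal values are counts that the authors divided by 1 size factor per library, called normalized counts in the labels: 100% of values in each library were whole multiples of its smallest value to within 0.001, so whole reads could be recovered. Replicates of a group differed by more than counting noise (chi-square per degree of freedom at least 29.6 in KO and 3.77 in Het, genes with at least 20 reads), so none were the same reads counted again. Whether libraries share a mouse or RNA is not given.

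Genotypes were compared with limma 3.58.1 in R 4.3.3 (trend and robust eBayes, two-sided) on log2(value + 1) of all genes with a mean of at least 10, with genotype as the only term and Benjamini-Hochberg adjustment at 0.05 over 21498 genes; fold changes on this scale understate those of low genes. On the deposited scale it found no gene-to-gene difference in spread beyond the trend. Count tests on the whole reads (edgeR 4.0.16 with TMM, 165 genes called; DESeq2 1.42.0, 214) were alternatives. RPKM used merged exons of GENCODE M21, and similar transcripts were searched with BLAST+ 2.17.0. Named were all members, the called members and the 2 smallest p of each list of related genes, the most abundant marker of each cell type and the 5 nearest profiles, of which 1 is not reported here; Atf5, Cebpb, Cebpg, Chac1, Slc7a11, Atf4, Krt19, Mthfd2l, Cct6a and D10Wsu102e were added after their values were seen. The members and lists were chosen with earlier results of these data known. Scripts were tested on simulated counts.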

Additional observations from a re-analysis of the deposited data

Results flagged for a closer look

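In 2 of 30 groups of 4 libraries tested, 1 library stood apart from the other 3 of its genotype by Dixon's criterion at the 95% level; chance alone gives about 1 in 20. Psat1 was high in Het 3, at 156.9 normalized counts against 88.3 to 100.01 in the other Het libraries, with a gap of 0.8292 of the range and a limit of 0.829. Aldh1l2 was low in Het 4, at 497.4 normalized counts against 869 to 878 in the other Het libraries, with a gap of 0.9767 of the range. Counts were tested on the deposited scale. There Het 3 had the highest level of expressed genes among Het libraries (0.22) and Het 4 the lowest (−0.46). Rescaled, Psat1 had 121, 102.05, 137 and 124 in Het 1 to Het 4, and Aldh1l2 had 1063, 887, 766 and 700. The same libraries were extreme, with a smaller gap relative to the range.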

How the results depend on the processing

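Limma called 203 genes and 0 members on the deposited scale. Psph was higher in KO under all 32 alternatives (log2 fold change 0.90 to 2.14) and Psat1 likewise (0.22 to 1.74). For Psph this sign was fixed in advance, since all 4 KO values lay above all Het values on both scales. For Psat1 that held on the rescaled scale. The count of genes was 688 with TMM factors at a minimum mean of 200, 128 without trend and robust settings and 10849 with libraries of both sexes only, which called 9 members. The KO libraries of both sexes are KO 1 and KO 2, so this setting cannot tell sex from their high level on the deposited scale. TMM, edgeR and DESeq2 called 1 member each. Alternatives chosen after seeing the data gave 331 genes and 1 member on the rescaled scale, 13238 and 9 with KO 1 and KO 2 alone (rescaled 8630 and 4), and 1875 and 2 with KO 3 and KO 4 alone (rescaled 875 and 1). Leaving out 1 library gave 111 to 382 genes and 0 to 1 members, and 143 to 1232 and 0 to 1 with TMM factors at a minimum mean of 200. Only 6697 genes and 7 members reached that minimum and were tested, and Psph, Psat1 and Shmt1 did not. The member called there was Phgdh, with KO 2 left out. On the rescaled scale, leaving out 1 library gave 88 to 884 genes and 0 to 2 members: 99, 884, 631 and 132 genes without KO 1 to KO 4, and 88, 88, 117 and 192 without Het 1 to Het 4. At the minimum mean of 200, it gave 1114 without KO 3 and 460 without KO 4.

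Signs turned for Shmt2 on the rescaled scale and with TMM factors at a mean of at least 200 (−0.0012 in both), and with KO 3 and KO 4 alone (−0.74, rescaled −0.19). Mthfd1l turned with DESeq2 (0.24), both sexes (0.84) and KO 1 and KO 2 alone (0.92), and Mthfd1 with that pair rescaled (−0.060). KO 3 and KO 4 alone also turned Phgdh (−0.027), Shmt1 (0.037, rescaled 0.58), Mthfd1 (−0.33), Mthfd2 (−0.32), Aldh1l2 (−0.43), Asns (−0.40) and the Shmt2 to Shmt1 ratio (−0.78). These 2 libraries were chosen for their low level on the deposited scale. Rescaled, the same pair gave positive values for Phgdh (0.52), Mthfd1 (0.22), Mthfd2 (0.23), Aldh1l2 (0.12) and Asns (0.15). There 75.4% of all genes were positive, with a median of 0.37, and of these enzymes only Phgdh lay above that median. Leaving out 1 library gave −0.15 to 0.59 for Shmt2 (rescaled, and at a mean of at least 200, −0.14 to 0.077, with −0.060 without Het 4), −0.35 to 0.33 for Mthfd1l, 0.23 to 0.82 for Mthfd2 (rescaled 0.20 to 0.35), 0.031 to 0.59 for Mthfd1 (rescaled 0.030 to 0.19) and −0.029 to 0.84 for this ratio. Other causes were not tested.

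Same-numbered libraries did not deviate together (correlations −0.28, 0.27, −0.55 and 0.63), so the numbers were not taken as pairs. With the replicate block 187 genes and 0 members were called, and on the rescaled scale 720 genes and 2 members, Psph and Psat1 (adjusted p = 0.0022 and 0.042), with Shmt2 at −0.0012. The 4 libraries a genotype and their unequal levels limit what the deposited scale can show.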
